A study of Homo sapiens with 6 samples.

Results

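Aminoacyl-tRNA synthetases join each amino acid to its tRNA, the step that sets the genetic code in every translated protein. The family described here holds 38 named genes, namely the cytosolic enzymes, the mitochondrial enzymes whose symbols end in 2, and AIMP1 and AIMP2, scaffold proteins of the multisynthetase complex. The members were chosen by name, and the family was selected on a measured value of the comparison made here, since AARS was already known to be higher in siLSD1 than in siCTR libraries of these data. Of the 38 genes, 35 had a row among the 15585 genes of the table. VARS, SARS2 and VARS2 were not analysed here. The 35 genes fell into 10 of the multisynthetase complex, 11 free cytosolic enzymes and 14 mitochondrial enzymes.

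The libraries were bulk RNA-seq of cells labelled U2OS, a human osteosarcoma line. The cells received a control siRNA (siCTR) or an siRNA against LSD1 (siLSD1) for 48 h, with 3 libraries a group. LSD1, encoded by KDM1A, is a histone demethylase that acts on methylated lysine 4 of histone H3. The sources do not name which of the study's LSD1 siRNAs was used, and nothing in them says that replicates came from separate cultures, so p-values measure only the spread between these samples, which may be technical. The comparison asks which transcripts differ once LSD1 is depleted.

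In the cytosol several synthetases are held with AIMP1, AIMP2 and EEF1E1 in the multisynthetase complex, and the others act as free enzymes. Mitochondria have their own enzymes, encoded in the nucleus and imported, while KARS and GARS each serve both compartments from a single gene. Mitochondrial glutaminyl-tRNA is made without a glutaminyl-tRNA synthetase, by an amidotransferase of QRSL1, GATB and GATC. When uncharged tRNA or other stress leads to phosphorylation of the initiation factor eIF2, translation of the transcription factor ATF4 increases, and ATF4 activates genes of amino acid supply. Many cytosolic synthetase genes are among its known targets, and the mitochondrial ones for the most part are not.

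Each library held between 12513511 and 13561344 reads counted on genes. AARS had 4070 to 6373 reads a library, while PARS2, the member with the lowest level, had 75 to 131, so counting error weighs more on PARS2. CPM, a gene's count over 1000000 counts of its library, was computed with the library size after TMM, edgeR's normalization for library composition. FPKM, which also divides by gene length, is used wherever levels of different genes are compared.

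The cell label was checked against marker genes. Of 9 osteoblast and osteosarcoma markers 7 had a row. RUNX2 and SP7, transcription factors that define osteoblasts, had at most 4 and 3 reads in any library, SPARC at most 3 and BGLAP at most 12. COL1A1 lay between 1.35 and 2.24 FPKM. ALPL and VIM were abundant, at 123 ± 6.94 and 428 ± 34.8 FPKM in siCTR (SD, n = 3). U2OS is known as a line that keeps its telomeres without telomerase, has lost ATRX and does not express CDKN2A, yet TERT lay between 1.30 and 2.09 FPKM, ATRX between 11.7 and 22.8 FPKM and CDKN2A between 43.0 and 70.1 FPKM over the 6 libraries. These values go against the U2OS label in both groups, so the cells are called cells labelled U2OS. Of the epithelial markers EPCAM and CDH1 reached at most 1.57 and 2.33 FPKM and KRT5 and KRT14 had at most 5 reads. KRT7, KRT8 and KRT18, keratins chosen after their values were seen, were at 132.0 to 177.1, 350.5 to 489.5 and 400.6 to 636.4 FPKM. Of the blood markers PTPRC and HBB had at most 2 reads in a library, and CD68 was the most abundant at 3.40 ± 0.780 FPKM in siCTR (SD, n = 3). Some of these markers also had log2 fold changes away from 0, namely CDH1 at 0.77 and KRT7 at 0.21, with all siLSD1 libraries above all siCTR libraries, TERT at −0.41 and KRT18 at −0.32, with all below, and ATRX at 0.38, with overlap. None of the 5 was called in edgeR, and the smallest adjusted p was that of CDH1 (0.0699, Benjamini-Hochberg). Their part in the results below was not tested.

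Some libraries stood apart. In siCTR replicate 2 the 2943 genes with the shortest transcripts lay at a median of 0.20 above their mean over the 6 libraries on the log2 scale, and the 2944 with the longest at −0.16. In siLSD1 replicate 3 the 2942 genes richest in GC lay at −0.27 and the 2942 poorest in GC at 0.13. In siLSD1 replicate 1 these values were 0.16 and −0.14. The numbers of calls, the medians of the groups and lists that are described at length, and some single values below are therefore also given without siCTR replicate 2 and without siLSD1 replicate 3.

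KDM1A, the targeted gene, was at 473, 506 and 489 CPM in siCTR replicates 1 to 3 and at 82.7, 96.1 and 92.4 CPM in siLSD1 replicates 1 to 3. Every siLSD1 library was below every siCTR library. The log2 fold change of KDM1A was −2.44 (SE 0.11, adjusted p = 2.27e-07, edgeR with Benjamini-Hochberg adjustment). As in any bulk sample, fewer cells that express a gene and less RNA per cell cannot be told apart.

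Over all 11844 genes that passed the filter on low counts, 127 were called higher in siLSD1 (1.07%) and 44 lower (0.371%) at an adjusted p under 0.05 (edgeR, Benjamini-Hochberg). At an unadjusted p under 0.05 there were 886 higher (7.48%) and 776 lower (6.55%). The median log2 fold change was −0.01. The numbers of calls depended on single libraries. There were 65 higher and 23 lower without siCTR replicate 2, 45 and 13 without siCTR replicate 3, 54 and 17 without siLSD1 replicate 1, 53 and 7 without siLSD1 replicate 2, and 89 and 29 without siLSD1 replicate 3. With a correction for GC content and length there were 529 higher and 343 lower, so that 60.7% of calls were higher in place of 74.3%.

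AARS, which charges alanyl-tRNA, was the member that led to the choice of the family, and its values are a description. AARS was at 335 CPM in siCTR replicate 1, 317 in replicate 2 and 326 in replicate 3. In siLSD1 it was at 475, 443 and 448 CPM in replicates 1 to 3. The groups did not overlap, and the lowest siLSD1 library was above the highest siCTR library by more than the range within either group. The means were 326 ± 9.25 and 455 ± 17.1 CPM (SD, n = 3 each), a ratio of 1.40. The log2 fold change was 0.48 with a 95% interval of 0.26 to 0.70. In FPKM AARS was at 97.4, 89.9 and 93.7 in siCTR and at 137.9, 127.0 and 128.1 in siLSD1. AARS took 5.41%, 4.74% and 4.93% of all reads of the family in siCTR and 7.35%, 6.58% and 6.30% in siLSD1. The plot of single members by library shows AARS beside 7 other members.

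**Figure D1:**
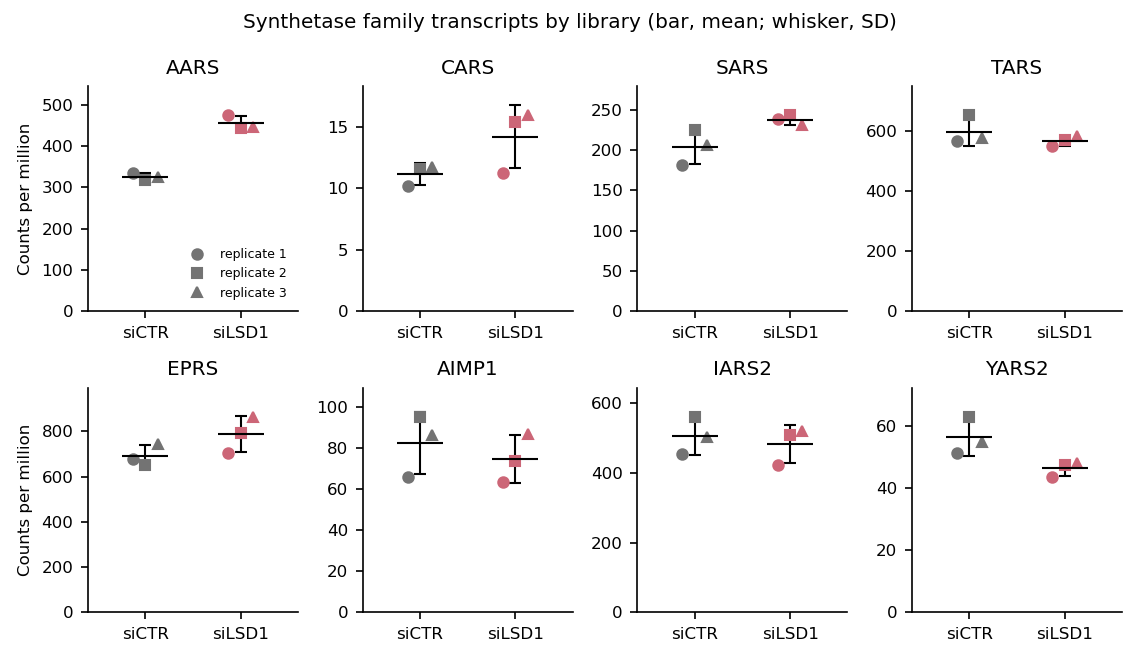
CPM (y axis, from 0) of 8 members in the 3 siCTR (grey) and 3 siLSD1 (red) libraries, with symbols for the replicate number, a bar for the mean and whiskers for the SD. AARS, SARS and YARS2 show no overlap between the groups, with AARS at 317 to 335 CPM in siCTR and 443 to 475 in siLSD1, while CARS, TARS, EPRS, AIMP1 and IARS2 overlap.

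The AARS gene lies at chr16:70251983-70289707 on the minus strand (GENCODE release 44, GRCh38), with 0.420% of its exon bases in exons of another gene. Its log2 fold change lay between 0.42 and 0.51 over the 16 alternative settings. It was 0.46 without siCTR replicate 2 and 0.50 without siLSD1 replicate 3.

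**Figure D2:**
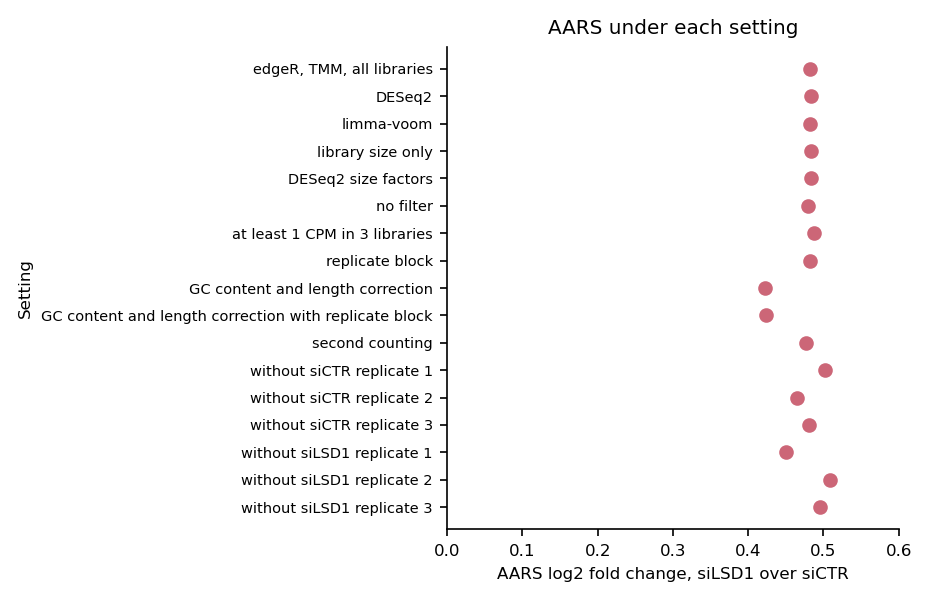
Log2 fold change of AARS, siLSD1 over siCTR (x axis, from 0), under the main setting and 16 alternatives (y axis). The values of the alternatives lie between 0.42 and 0.51, with the lowest 2 in the fits with the GC content and length correction.

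Since ATF4 and C/EBP proteins are known to bind the CARE element, the promoter windows of the members were searched for its letters, TGATGNAA, on both strands. The windows, from RefSeq (GRCh38.p14), run from 250 bases before to 50 bases after a gene's start, and 32 of the 38 members had one. LARS, DARS, VARS, YARS, AARS2 and VARS2 had none in the table used here. The letters were found in 8 of the 32 members (25%) and in 1217 of 27305 genes with a window (4.46%). By group they were in 5 of 10 free cytosolic enzymes, 2 of 8 complex members and 1 of 14 mitochondrial enzymes. A match is a description of the letters and not of a bound site. The matches are shown because they can be set beside each member's value. Each line gives 30 bases in the direction of the gene, with the match in capitals.
AARS: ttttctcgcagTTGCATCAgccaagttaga
CARS: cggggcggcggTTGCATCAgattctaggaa
MARS: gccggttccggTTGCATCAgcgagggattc
IARS: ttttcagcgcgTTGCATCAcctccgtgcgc
TARS: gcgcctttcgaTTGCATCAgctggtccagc
NARS: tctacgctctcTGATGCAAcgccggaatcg
GARS: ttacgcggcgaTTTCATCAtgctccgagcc
YARS2: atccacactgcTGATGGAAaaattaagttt

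The stretches lie at chr16:70289675-70289704 (minus strand) for AARS, chr11:3057407-3057436 (minus) for CARS, chr12:57488053-57488082 (plus) for MARS and chr9:92293692-92293721 (minus) for IARS. Those of TARS, NARS, GARS and YARS2 are chr5:33440956-33440985 (plus), chr18:57621804-57621833 (minus), chr7:30594834-30594863 (plus) and chr12:32756076-32756105 (minus). Positions count from the RefSeq start of each window. The GENCODE genes begin further upstream for all but YARS2, so that the stretches of the other 7, AARS among them, fall inside the GENCODE gene. In AARS the match begins at position −187 from the RefSeq start, and in CARS, MARS and IARS at −2, −4 and −13. AARS, CARS, MARS, IARS and TARS hold the same 8 letters in the same direction. Their log2 fold changes were 0.48 for AARS, 0.34 for CARS, 0.16 for MARS, 0.06 for IARS and −0.07 for TARS. The 95% intervals of CARS, MARS, IARS and TARS included 0, and ran from −0.02 to 0.71 for CARS and from −0.31 to 0.16 for TARS. AARS led to the choice of the family, so nothing about the letters is read from the spread of these values. Without siLSD1 replicate 1 CARS, at 0.49, was above AARS, at 0.45. NARS, with the letters on the other strand and just after its start, was at −0.03, and GARS was at 0.11. YARS2, the 1 mitochondrial enzyme with a match, was at −0.28. SARS, at 0.22, had no match in its window.

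All 35 members with a row passed the filter on low counts. AARS was the 1 member called higher, beside 1.07% of all tested genes, and 0 were called lower, beside 0.371%. The call of AARS was lost in 5 of the 6 fits that left out a library. Since the family was selected on this comparison, nothing is read from these counts. The count lower was 0 also with DESeq2 and limma-voom, beside 0.954% and 0.321% of all tested genes. At an unadjusted p under 0.05 in edgeR it was 1, YARS2, beside 6.55%. Of the 35, 17 had a log2 fold change above 0 and 18 below 0. The median was −0.004, beside −0.014 over all tested genes. For 30 of the 35 the whole 95% interval lay within 0.5 of 0 on the log2 scale, beside 6134 of all 11844 tested genes. The exceptions were AARS, CARS, MARS2, PARS2 and YARS2. Every siLSD1 library was above every siCTR library for AARS, SARS, MARS, WARS, EARS2 and RARS2 (6 members, beside 11.4% of all tested genes), and below for YARS2 alone (beside 9.97%). The summed level of the family was 6203, 6679 and 6609 CPM in siCTR and 6462, 6734 and 7108 CPM in siLSD1, so the groups overlapped.

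**Figure D3:**
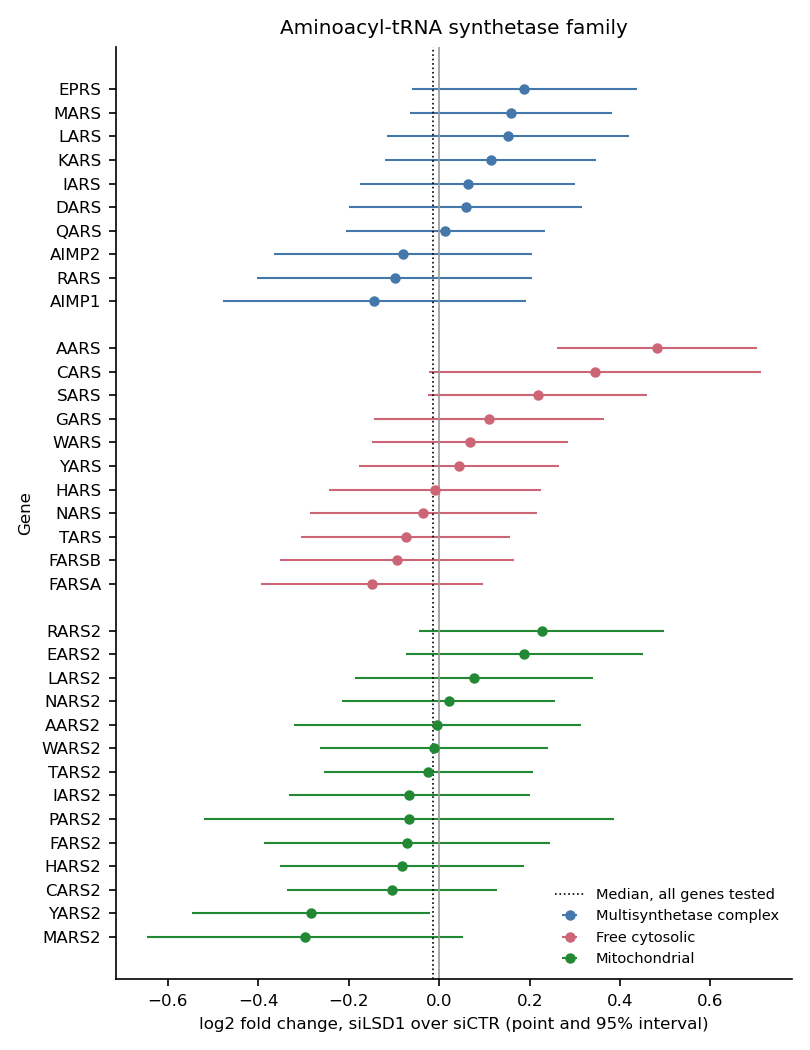
Log2 fold change, siLSD1 over siCTR (x axis), of the 35 members (y axis), as points with 95% intervals, in the multisynthetase complex (blue), the free cytosolic enzymes (red) and the mitochondrial enzymes (green). The dotted line is the median of all tested genes, and AARS at 0.48 lies highest while MARS2 at −0.30 lies lowest in this fit of all 6 libraries.

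The free cytosolic enzymes had a median log2 fold change of 0.04. AARS and CARS had the highest values. CARS, which charges cysteinyl-tRNA, was covered by 132, 149 and 158 reads in siCTR, against 151, 192 and 215 in siLSD1. In CPM these were 10.2, 11.6 and 11.7 against 11.3, 15.4 and 15.9, so that siLSD1 replicate 1 lay within the siCTR range. Its log2 fold change was 0.34 with a 95% interval of −0.02 to 0.71. SARS, the seryl-tRNA synthetase, was at 182, 225 and 207 CPM in siCTR and at 238, 244 and 231 in siLSD1. The groups did not overlap, but siCTR replicate 2 and siLSD1 replicate 3 lay close together. SARS had a log2 fold change of 0.22 with an interval of −0.02 to 0.46, and it was 0.14, 0.29 and 0.22 without siCTR replicates 1 to 3 and 0.21, 0.21 and 0.24 without siLSD1 replicates 1 to 3. GARS, WARS and YARS lay between 0.04 and 0.11, and HARS, NARS and TARS between −0.07 and −0.01. FARSA and FARSB, the subunits of phenylalanyl-tRNA synthetase, were at −0.15 and −0.09.

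The free cytosolic median in single libraries, relative to the siCTR mean, was −0.08, 0.06 and −0.00 in siCTR and 0.01, 0.01 and 0.11 in siLSD1. The median log2 fold change was 0.04, 0.06 and 0.04 without siCTR replicates 1 to 3, and 0.04, 0.07 and 0.01 without siLSD1 replicates 1 to 3. NARS, the asparaginyl-tRNA synthetase, had the highest level of these enzymes in siCTR. It was at 126.1, 140.1 and 135.2 FPKM in siCTR and at 118, 129.8 and 144.6 FPKM in siLSD1, and the groups overlapped. CARS had the lowest level, at 3.29, 3.66 and 3.76 FPKM in siCTR and 3.64, 4.91 and 5.08 FPKM in siLSD1. CARS was lower than HARS, its nearest neighbour in level at 25.3 ± 0.378 FPKM in siCTR (SD, n = 3), in every library. CARS had 1.09 times as many reads by median in a second counting of the same libraries, and 2.80% of its exon bases lie in exons of other genes.

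The multisynthetase complex had a median log2 fold change of 0.06. Of its 10 members 7 were above 0, namely EPRS (0.19), MARS (0.16), LARS (0.15), KARS (0.11), IARS (0.06), DARS (0.06) and QARS (0.01). AIMP2, RARS and AIMP1 were at −0.08, −0.10 and −0.14. Single libraries moved these values. Without siLSD1 replicate 3 LARS, KARS, IARS and DARS were at 0.04, 0.06, 0.004 and −0.03, and without siCTR replicate 2 RARS was at 0.02 and AIMP2 at 0.01. None was called in edgeR, beside 1.07% of all tested genes higher and 0.371% lower, or in DESeq2, beside 1.77% and 0.954%. At an unadjusted p under 0.05 in edgeR there were 0, beside 7.48% higher and 6.55% lower. All 10 intervals lay within 0.5 of 0, beside 6134 of all 11844 tested genes. EPRS, which charges both glutamyl- and prolyl-tRNA, had the highest level of the complex in siCTR. It was at 136.4, 127.9 and 148.4 FPKM in siCTR and at 141.9, 157.1 and 171.3 FPKM in siLSD1. The groups overlapped, since siLSD1 replicate 1 was below siCTR replicate 3. The log2 fold change of EPRS was 0.15 without siCTR replicate 2 and 0.12 without siLSD1 replicate 3. AIMP1, a scaffold of the complex, had the lowest level, at 20.3, 28.7 and 26.5 FPKM in siCTR and 19.6, 22.5 and 26.4 FPKM in siLSD1, again with overlap.

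By library, the median of the complex relative to the siCTR mean was −0.06, 0.02 and 0.07 in siCTR and −0.05, 0.06 and 0.19 in siLSD1. The highest value was that of siLSD1 replicate 3, the library in which GC-poor genes lay high, and the median GC content of the complex transcripts was 42.8%, beside 47.9% over all tested genes. The part of base composition in this value was not tested beyond the corrected fit, in which the median of the complex was 0.06. Without the correction it was 0.03, 0.05 and 0.10 without siCTR replicates 1 to 3, and 0.13, 0.08 and 0.02 without siLSD1 replicates 1 to 3.

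EEF1E1, the further scaffold of the complex that the list of members leaves out, was at 9.11, 15.5 and 8.56 FPKM in siCTR and at 7.88, 6.62 and 6.72 FPKM in siLSD1. All siLSD1 libraries were below all siCTR libraries, and siCTR replicate 2 was far above the other 5. The log2 fold change was −0.65 (SE 0.22), and the adjusted p of 0.197 from edgeR with Benjamini-Hochberg adjustment did not pass the threshold. Without siCTR replicate 2 the log2 fold change was −0.31. TARSL2, a second cytosolic threonyl enzyme that the list also leaves out, was at 0.00. Of the family genes outside the list 6 were tested. None of them was called in edgeR, beside 1.07% of all tested genes higher and 0.371% lower. At an unadjusted p under 0.05 only EEF1E1 was found, and it was lower, beside 6.55% of all tested genes.

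Over the mitochondrial enzymes the median log2 fold change was −0.04, with 4 of 14 above 0 and 10 below. The median was −0.09, −0.03 and −0.01 without siCTR replicates 1 to 3, and −0.05, 0.01 and −0.04 without siLSD1 replicates 1 to 3, so its sign turned in 1 of the 6 fits. By library it was −0.08, 0.02 and 0.02 relative to the siCTR mean in siCTR, and −0.01, −0.04 and 0.03 in siLSD1, so the groups overlapped. RARS2 and EARS2 had the highest values, at 0.23 and 0.19, followed by LARS2 at 0.08 and NARS2 at 0.02. Without siCTR replicate 2 these 4 were at 0.25, 0.10, −0.01 and 0.07. AARS2, the mitochondrial counterpart of AARS, was at −0.004 with a 95% interval of −0.32 to 0.31. WARS2, TARS2, IARS2, PARS2, FARS2, HARS2 and CARS2 lay between −0.10 and −0.01.

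YARS2, the mitochondrial tyrosyl-tRNA synthetase, was at 51.4, 63.1 and 55.0 CPM in siCTR and at 43.6, 47.5 and 48.2 CPM in siLSD1. The groups did not overlap, and siCTR replicate 1 was close to siLSD1 replicates 2 and 3. Its log2 fold change was −0.28 with a 95% interval of −0.55 to −0.02, and it was −0.20 without siCTR replicate 2 and −0.31 without siLSD1 replicate 3. In FPKM it was at 24.5, 29.3 and 25.9 in siCTR and at 20.7, 22.3 and 22.6 in siLSD1. Exons of another gene hold 18.1% of its exon bases. MARS2 had the lowest log2 fold change of the family, −0.30, with an interval of −0.65 to 0.05 and 162 to 257 reads a library. It was at −0.16 without siLSD1 replicate 3 and at −0.25 without siCTR replicate 1, and in both fits YARS2 was the lowest.

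Mean levels of the mitochondrial enzymes in siCTR ran from 3.42 to 142 FPKM, and those of the complex from 25.2 to 138 FPKM. IARS2, the isoleucyl enzyme, was the most abundant at 128, 155 and 141 FPKM in siCTR and at 119.5, 141.9 and 144.9 FPKM in siLSD1. CARS2 followed at 103 ± 4.10 FPKM in siCTR (SD, n = 3). The next, TARS2, was at 27.2 ± 0.212 FPKM, and the siCTR libraries of TARS2, YARS2 and NARS2 overlapped in that order. PARS2, the prolyl enzyme, was the lowest at 2.75, 3.37 and 4.15 FPKM in siCTR and at 3.62, 2.55 and 3.64 FPKM in siLSD1. The other 8 lay between 6.12 and 20.3 FPKM. The median over the 14 was 15.9 FPKM, beside 68.5 over the complex and 88.7 over the free cytosolic enzymes.

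Order within the cytosolic groups was read the same way. In the complex EPRS (138 ± 10.3 FPKM in siCTR, SD, n = 3) was above KARS (119.6 ± 6.0), and the siCTR libraries of KARS and RARS and of RARS and IARS overlapped. QARS, MARS and LARS followed at 73.6, 63.4 and 51.8 FPKM without overlap between neighbours, and AIMP2 and DARS overlapped at 32.6 and 31.4 FPKM. Among the free enzymes NARS and TARS overlapped at 134 and 131 FPKM, and SARS, GARS, AARS and FARSA each overlapped its neighbour between 88.7 and 105 FPKM. In siLSD1, AARS reached 131 ± 6.0 FPKM (SD, n = 3), beside 131 ± 13.4 for NARS and 125 ± 2.69 for TARS. FARSA and FARSB, whose proteins form 1 enzyme, stood at 88.7 ± 2.30 and 36.3 ± 2.41 FPKM in siCTR.

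For 12 amino acids both a cytosolic and a mitochondrial enzyme were compared, and EPRS, which serves 2 amino acids, was not paired with EARS2 or PARS2. In 10 of the 12 the cytosolic enzyme was above the mitochondrial one in all 3 siCTR libraries, with a median ratio over the 12 pairs of 4.14. The ratio of AARS to AARS2 was 10.6 ± 1.71 in siCTR (SD, n = 3), the highest of these 12, and 14.6 ± 0.792 in siLSD1. MARS to MARS2 and FARSA to FARS2 were close to it in siCTR, at 10.4 ± 0.841 and 10.2 ± 0.991. In siLSD1 MARS to MARS2 was also at 14.6 (SD 3.40), and FARSA to FARS2 was at 9.74 ± 1.65. HARS and HARS2 were the nearest to even among pairs led by the cytosolic enzyme, at 1.26 ± 0.119. The exceptions were IARS to IARS2, at 0.710 ± 0.0850, and CARS to CARS2, at 0.0346 ± 0.00187. In these counts CARS2 was thus above CARS in each siCTR library. EEF1D, a subunit of an elongation factor, had at most 1 read in any library, and how fully the counting covers CARS was not tested.

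**Figure D4:**
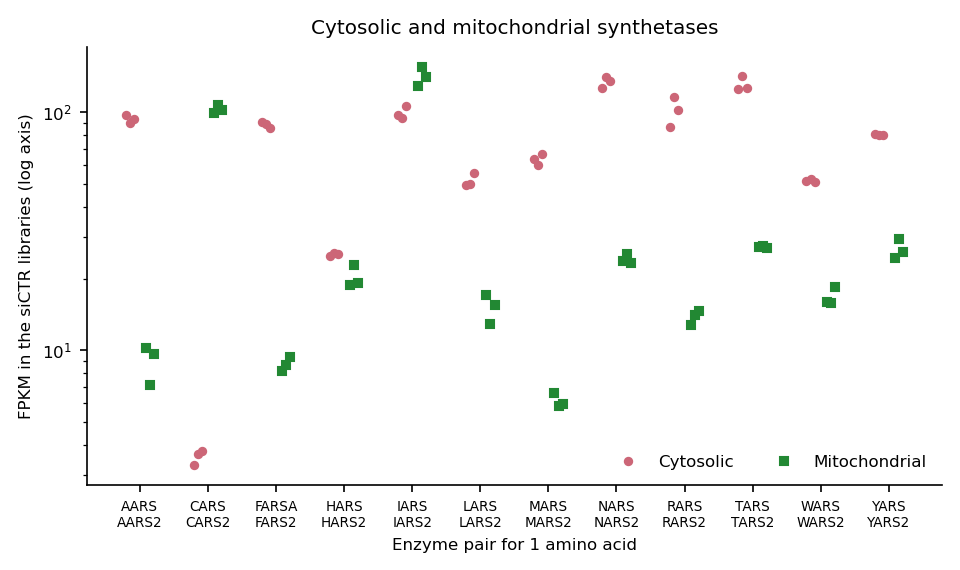
FPKM in the 3 siCTR libraries (y axis, log scale) of the cytosolic (red circles) and the mitochondrial (green squares) enzyme for 12 amino acids (x axis). The cytosolic enzyme is above in 10 pairs, and CARS and IARS lie below CARS2 and IARS2.

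Some members share sequence with a neighbouring gene, and whether the counting used strand is not given in the sources used here. AIMP2 has 29.1% of its exon bases in exons of EIF2AK1, which lies on the opposite strand, and MARS has 13.3% in exons that include those of DDIT3 and ARHGAP9. WARS has 10.6% in other genes. HARS and HARS2 overlap at their starts, but other neighbours count as well. HARS has 8.46% in exons that include those of WDR55, DND1 and HARS2, and HARS2 has 6.99% in exons of ZMAT2 and HARS. Values of these members are uncertain to that extent. AIMP2 was at −0.08 while EIF2AK1 was at 0.33, and MARS was at 0.16 while DDIT3 was at 0.07. Reads of the members were 1.08 to 1.19 times as many in the second counting by median, with the highest ratio for DARS.

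Of the 12 cytosolic synthetases listed as ATF4 targets, 10 were above 0, with a median of 0.13, and 11 without AARS had a median of 0.11. By library the median of the 12 relative to the siCTR mean was −0.06, 0.03 and 0.02 in siCTR and 0.02, 0.10 and 0.20 in siLSD1. The groups overlapped, and siLSD1 replicate 3, which stood apart, was the highest. The other cytosolic synthetases, 7 genes, had a median of −0.01, with 3 above 0. For the split by catalytic class, EPRS, which charges both glutamyl- and prolyl-tRNA, was counted in class I only. The 9 class I enzymes had a median of 0.07 and the 10 class II enzymes, AARS among them, a median of 0.02. These medians stand beside −0.01 over all genes and were not tested.

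ATF4 and its targets outside the family were read from a list of 40 genes, of which 38 had a row and 37 were tested. 1 was called higher and 0 lower in edgeR, beside 1.07% and 0.371% of all tested genes. At an unadjusted p under 0.05 there were 14 higher and 1 lower, beside 7.48% and 6.55% of all tested genes. The median log2 fold change was 0.23, and 32 of 37 were above 0. The median was 0.25 without siCTR replicate 2, 0.27 without siLSD1 replicate 3 and 0.18 without siLSD1 replicate 1. By library it was −0.02, 0.09 and −0.03 relative to the siCTR mean in siCTR, and 0.31, 0.24 and 0.14 in siLSD1. The median GC content of the list was 52.7%, beside 47.9% over all tested genes. All siLSD1 libraries were above all siCTR libraries for 17 of the 37 and below for 2, beside 11.4% and 9.97% of all tested genes. The summed level of the list was 4800, 4806 and 4777 CPM in siCTR and 5731, 5480 and 5100 CPM in siLSD1, so the groups did not overlap. The most abundant of them was SLC7A5, a transporter of large neutral amino acids, at 189.6 ± 24.9 FPKM in siCTR (SD, n = 3) and 238 ± 32.7 in siLSD1.

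STC2, which encodes the secreted glycoprotein stanniocalcin 2, rose from 41.7, 32.4 and 35.4 CPM in siCTR to 55.1, 49.3 and 67.2 CPM in siLSD1. Its log2 fold change was 0.65 (SE 0.15, adjusted p = 0.0478, edgeR with Benjamini-Hochberg adjustment). The adjusted p was 0.0534 with limma-voom and 0.0576 with library size alone in edgeR, 0.158 without siCTR replicate 2, 0.159 without siCTR replicate 3, 0.0974 without siLSD1 replicate 1, 0.0752 without siLSD1 replicate 2 and 0.119 without siLSD1 replicate 3. The direction was the same in each. PPP1R15A, a subunit of the phosphatase that acts on eIF2, was at 0.57 (adjusted p = 0.0624) and SLC7A1, a transporter of cationic amino acids, at 0.49 (adjusted p = 0.0843), both from edgeR with Benjamini-Hochberg adjustment. SLC7A11, ADM2, TRIB3, CHAC1 and INHBE had log2 fold changes of 0.40, 0.85, 0.46, 0.76 and 0.66, and their adjusted p-values in edgeR lay between 0.110 and 0.179.

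ATF4 itself, chosen for its role after its value was seen, was at 196, 241 and 196 CPM in siCTR and at 266, 253 and 267 CPM in siLSD1. The groups did not overlap, and the log2 fold change of 0.31 had an adjusted p of 0.239 in edgeR. ASNS and DDIT3, textbook targets chosen in the same way, were at 0.15 and 0.07, and ATF5, a related factor, at −0.49 (adjusted p = 0.240, edgeR). With the correction for GC content and length 12 of the list were called higher and 0 lower, ATF4 and STC2 among them, beside 4.50% and 2.91% of all genes tested in that fit. In the promoter windows the CARE letters were found for 11 of the 32 genes of the list that had one (34.4%).

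**Figure D5:**
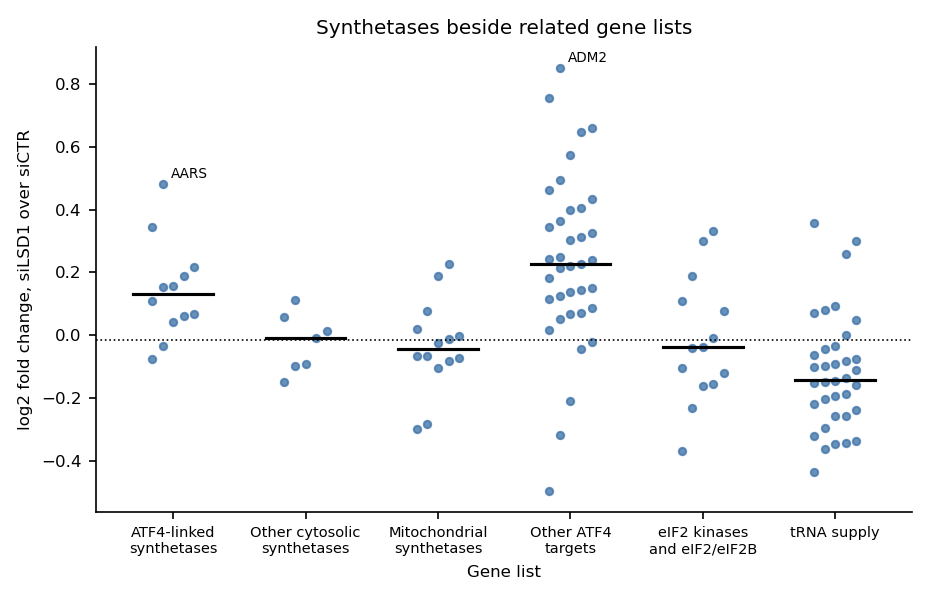
Log2 fold change, siLSD1 over siCTR (y axis), of single genes (points) in 6 lists (x axis), with a bar for the median of each list and a dotted line for the median of all tested genes. The ATF4-linked synthetases have a median of 0.13, the other ATF4 targets 0.23 and the mitochondrial synthetases −0.04.

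Upstream of ATF4 stand the eIF2 kinases, eIF2 and its exchange factor eIF2B, a list of 14 genes. None was called in edgeR, beside 1.07% of all tested genes higher and 0.371% lower. At an unadjusted p under 0.05 there were 2 higher and 1 lower, beside 7.48% and 6.55% of all tested genes. EIF2AK1, the heme-regulated kinase, was at 0.33 (adjusted p = 0.196) and IMPACT, a regulator of the kinase GCN2, at 0.30 (adjusted p = 0.318), and EIF2B4, a subunit of eIF2B, at −0.37 (adjusted p = 0.173), each from edgeR with Benjamini-Hochberg adjustment. The list median was −0.04, with −0.02 without siCTR replicate 2 and −0.09 without siLSD1 replicate 3, and it turned to 0.01 without siLSD1 replicate 1. EIF2AK4, the kinase known to sense uncharged tRNA, was at 0.11.

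Genes that supply and mature tRNA, 36 with a row and all tested, had a median of −0.14, with 8 above 0 and 28 below. None was called in edgeR, beside 1.07% of all tested genes higher and 0.371% lower. At an unadjusted p under 0.05 there were 1 higher and 5 lower, beside 7.48% and 6.55% of all tested genes. The median was −0.07 without siCTR replicate 2 and −0.12 without siLSD1 replicate 3. TRMU, which thiolates mitochondrial tRNA, was at 67.9, 67.9 and 55.9 CPM in siCTR and at 49.6, 52.9 and 39.5 CPM in siLSD1, a log2 fold change of −0.43 (adjusted p = 0.172, edgeR with Benjamini-Hochberg adjustment). POP4, POP5, POP7 and RPP30, protein subunits of RNase P, lay between −0.36 and −0.32, and the 9 RNase P subunits listed had a median of −0.30. They were nearer to 0 without siCTR replicate 2, the library in which short transcripts lay high. In that fit POP4, POP5, POP7 and RPP30 were at −0.24, −0.18, −0.23 and −0.25 and the 9 subunits had a median of −0.18, and with the correction for GC content and length that median was −0.20. Without siLSD1 replicate 3 it was −0.23. TSEN15, a subunit of the tRNA splicing endonuclease, was at 0.36. QRSL1, GATB and GATC, the amidotransferase that makes mitochondrial glutaminyl-tRNA, were at −0.24, −0.11 and −0.15.

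Of the cytosolic elongation factors 3 genes were tested. EEF1A1, which carries charged tRNA to the ribosome, was at −0.04, EEF2 at 0.15 and EIF5A at −0.11. The 9 mitochondrial translation factors had a median of −0.03. None of either list was called in edgeR, beside 1.07% of all tested genes higher and 0.371% lower. At an unadjusted p under 0.05 there were 0, beside 7.48% higher and 6.55% lower. Over all 6 lists, 1 of 105 tested genes was called higher and 0 lower in edgeR, beside 1.07% and 0.371% of all tested genes. DESeq2 called 3 higher, namely STC2, SLC7A1 and PPP1R15A, and 0 lower, beside 1.77% and 0.954%, and limma-voom 0. The number in edgeR was 0 in 4 of the 6 fits that left out a library (without siCTR replicate 2 or 3 and without siLSD1 replicate 1 or 2), 2 without siCTR replicate 1 (STC2 and ADM2), 1 without siLSD1 replicate 3 (TRIB3), and 17 with the correction for GC content and length (15 higher and 2 lower, beside 4.50% and 2.91% of all genes).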

How the data were processed

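RNA from cells labelled U2OS was sequenced in 3 siCTR and 3 siLSD1 libraries. Reads were aligned with STAR by the authors (version, genome build, annotation and counting tool not given in the sources used here). The authors deposited whole-number counts per gene, FPKM values, and a signal that is the count divided by a size factor, in 1 table of 6 libraries, and counts from a second counting in tables of library pairs. Columns of the authors' own comparisons hold fold changes and p-values and were not used.

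From the deposited counts, edgeR 4.0.16 (R 4.3.3) was run with TMM, filterByExpr at a minimum count of 10, the quasi-likelihood test and Benjamini-Hochberg adjustment over 11844 genes, with no covariates. A call is an adjusted p under 0.05. Intervals are 95% intervals from that fit. The depth, 12513511 to 13561344 counts a library, limits precision mainly for CARS, PARS2 and MARS2. The test was first tried on simulated counts. GC content and length came from GENCODE release 44, matched for 98.5% of genes. Promoter windows came from RefSeq. The 16 alternatives were DESeq2 1.42.0, limma-voom (limma 3.58.1), other scalings, filters, a replicate block, GC content and length correction, the second counting, and leaving out each library.

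The members and lists were chosen with earlier results of these data known. Named genes were KDM1A, AARS, members with an unadjusted p under 0.05, the highest and lowest member by siCTR FPKM in each group, and up to 8 genes a list by p. Other members are given by value.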

Additional observations from a re-analysis of the deposited data

How the results depend on the processing

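Log2 fold changes of single members moved by less than 1 SD of the replicates under all alternatives, except AARS, which was 0.42 with the GC content and length correction, with and without the replicate block. The cause was not tested. AARS, KDM1A and the 25 pathway genes followed over the alternatives kept their sign, while 16 of the 35 members, with NARS, IARS2 and PARS2 among them, turned sign near 0 in at least 1. Genes called higher (127) and lower (44) numbered 210 and 113 with DESeq2, 529 and 343 with GC content and length correction, and 45 to 99 and 7 to 37 when a library was left out, where fewer samples remained. Without a filter 102 were lower. Of the pathway genes (1 called) 3 were called with DESeq2 and with no filter, 0 with limma-voom and with library size alone, 17 with the correction, and 0 to 2 with a library left out. AARS, the 1 member called higher, was called in only 1 of the 6 fits with a library left out, and members called lower stayed at 0. The mitochondrial median ranged from −0.092 to 0.015 with a library left out.

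Same-numbered libraries correlated over genes at 0.33, 0.07 and 0.31 in their deviations from the group means, and each library correlated best with its own number. The authors also deposited the second counting in tables that each set same-numbered libraries against each other. The labels name no shared culture or day, and 1 of the 3 correlations was low, so the numbers were not taken to pair the libraries. With a replicate block 489 genes were called higher (4.13%) and 408 lower (3.44%), 14 of 105 pathway genes were called (10 higher and 4 lower, EEF1E1 among the lower), and AARS was the 1 member called. With the block and the correction together, 724 were higher (6.15%) and 574 lower (4.88%), 21 pathway genes were called (16 higher and 5 lower), and 2 members were called, AARS and SARS. The depth limits members of low level. The 95% interval of PARS2 ran from −0.52 to 0.39.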
